A study of Mus musculus with 28 samples.

Results

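Whole ovaries of wild-type females were compared 6 h after a total-body dose of 0.5 Gy ionizing radiation (IR, from a caesium-137 source) or after sham treatment at 0 Gy (non-IR), by bulk sequencing of polyA RNA. The comparison took the 6 IR and the 6 non-IR wild-type libraries by their labels, that is 12 of the 24 bulk libraries and of the 28 samples of the series in all, and it covered 26790 genes. The females were juvenile C57BL/6J mice about a week old, and each library held the RNA of the paired ovaries of an animal. The other 12 bulk libraries came from *Chek2*-/- females (allele Chek2tm1b(EUCOMM)Hmgu) at the same doses and time. They entered the same fit, and so the gene filter, the scaling and the estimate of spread behind the wild-type calls. Their own values served here only as a reference for the wild type. The remaining samples were 4 single-cell libraries, of which the IR and the non-IR wild-type library, made from other animals, were used to locate the genes.

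A juvenile mouse ovary holds mostly primordial follicles, each an arrested oocyte within a layer of flattened pregranulosa cells, beside a smaller number of growing follicles, stroma, vessels and surface epithelium. DNA double-strand breaks activate the kinases ATM and CHEK2, which stabilize p53 in most cells and, in primordial oocytes, activate TAp63, a p53 relative that turns on proapoptotic genes. Both factors bind nearly the same DNA element, and their target genes include *Bbc3* and *Pmaip1*, activators of apoptosis. Another target of p53 is *Cdkn1a*, a cell cycle inhibitor. The study reports that p53, and not TAp63, induced *Cdkn1a* in the irradiated ovary. In bulk tissue, fewer cells of a type and less RNA per cell cannot be told apart.

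Library totals lay between 19768533 and 32605519 estimated counts in the non-IR group and between 17824920 and 28535592 in the IR group, so that 3 counts equal between 0.0931 and 0.168 CPM (counts scaled to 1000000 per library). Markers of the tissue were present in all 12 libraries, among them the oocyte coat gene *Zp3* at 702 CPM or more and the granulosa factor *Foxl2* at 65.9 CPM or more. *Chek2* itself read 18.5 to 24.6 CPM in the wild type and 2.88 to 4.53 CPM in the *Chek2*-/- libraries. Neutrophil genes stood apart in a single wild-type library, IR replicate 3, where the 20 listed genes summed to as much as 2158 CPM, against 9.48 to 24 CPM in the non-IR libraries. They also stood apart in *Chek2*-/- IR replicate 2, at 2021 CPM, where the other *Chek2*-/- libraries read 10.4 to 33.1 CPM. Replicates 5 and 6 deviated from their group means together, with a correlation across genes of 0.63 in the non-IR and 0.39 in the IR group. The deviation was shared across the groups, at 0.60 for both replicates 5, 0.46 for non-IR replicate 6 with IR replicate 5 and 0.37 for non-IR replicate 5 with IR replicate 6. It was weakest at 0.28 for both replicates 6, and the labels do not name a batch. A term for these replicates, added after the data were seen, was fitted to the 12 wild-type libraries alone. It raised their number of called genes from 709 to 952, while the fit of all 24 bulk libraries, given next, called 633.

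IR changed 633 genes at an adjusted p of at most 0.05 (2.36% of the genes tested), by the quasi-likelihood test of edgeR and adjustment after Benjamini and Hochberg. Of these, 400 rose (1.49%) and 233 fell (0.87%). The 2 directions had different sizes. A change of at least 2-fold was reached by 223 risers (0.832%) but by 58 fallers (0.216%), whereas changes under 2-fold were split evenly, with 177 risers (0.661%) and 175 fallers (0.653%). The median log2 fold change was 1.2 among the risers and -0.54 among the fallers, the latter a fall of the mean by about 31.4% (median percent change -31.4), and the median over all genes tested was -0.00. The 6 IR values lay entirely below the 6 non-IR values for 141 of the 233 fallers and entirely above them for 337 of the 400 risers, and over all genes tested 0.885% and 1.68% were separated in these directions. At an unadjusted p under 0.05 there were 2998 genes. The number of fallers was 144 without IR replicate 3 and 148 without non-IR replicate 5, and 124 fallers and 315 risers were called in all 12 fits that left out a library.

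The study's list of 83 radiation-responsive genes, which was drawn from these libraries with a 2-fold minimum, covered a minority of these genes. Of the 82 listed genes found among those tested, 75 rose, 3 fell and 4 did not pass the test. Outside it lay 325 risers, 148 of at least 2-fold and all 177 under 2-fold, and 230 of the 233 fallers. The listed risers were mostly genes of low starting level, with a median of 0.473 CPM without IR. The unlisted risers of at least 2-fold started as low, at a median of 0.479 CPM. The risers under 2-fold had a median of 18.9 CPM and the fallers under 2-fold 31.5 CPM.

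**Figure D1:**
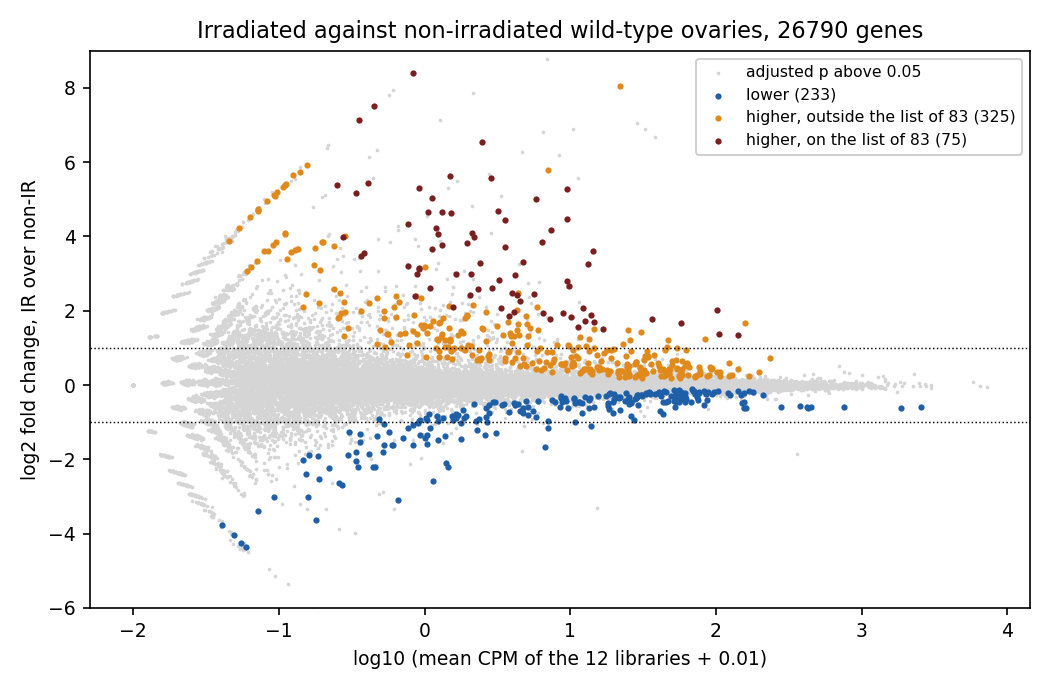
Each point is a gene; the x axis gives the log10 of its mean CPM over the 12 wild-type libraries plus 0.01, the y axis the log2 fold change of IR over non-IR, and dotted lines mark 2-fold. The 233 fallers (blue) lie mostly between the dotted line and 0 and reach further right than the 75 risers of the list of 83 (dark red), while the 325 other risers (orange) spread over both ranges.

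Among the fallers, the smallest adjusted p belonged to *Slc6a20b* (chr9:123590800-123632565, GRCm38, minus strand), a sodium-dependent transporter of the amino acid transporter family. Its level was 17.7, 19.1 and 20.2 CPM (lowest, median and highest library) without IR and 7.90, 8.76 and 9.76 CPM with IR. The groups did not overlap, and the spread within each was small beside the distance between them (log2 fold change -1.11 ± 0.07 SE, adjusted p = 5.96e-11, edgeR). Its neighbour and near copy *Slc6a20a*, with which it shares 801 stretches of 31 bases, also fell (-0.43, adjusted p = 0.00715), so the split of reads between the pair is uncertain. *Nox1*, a superoxide-producing NADPH oxidase, went from 1.38, 2.05 and 2.44 CPM to 0.148, 0.309 and 0.480 CPM. That gene lost most of its low signal in every IR library (log2 fold change -2.59, adjusted p = 2.19e-07).

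The other named fallers ranged from small changes of well-expressed genes to large changes of weakly expressed ones. *Ints6*, a subunit of the Integrator complex that cleaves nascent RNA and releases paused RNA polymerase II, read 57.2, 63.2 and 64.7 CPM without IR and 44.8, 47.2 and 48.5 CPM with IR (log2 fold change -0.41 ± 0.05 SE, adjusted p = 4.63e-06). *Grpel2*, a nucleotide exchange factor of the mitochondrial protein import motor, read 46.3, 50.6 and 55.0 CPM against 34.0, 36.7 and 39.8 CPM (-0.47, adjusted p = 1.97e-06). All 6 IR libraries were below all 6 non-IR libraries for both genes. *Frmpd1*, a scaffold of G protein regulators, fell by 1.16 on the log2 scale, from a median of 9.26 to 4.14 CPM, and *Fam19a1*, a secreted chemokine-like protein of the nervous system, fell by 1.36, from 3.54 to 1.39 CPM. *Pnma5*, a member of a retrotransposon-derived neuronal antigen family, went from a median of 2.11 to 0.531 CPM (-2.09, adjusted p = 1.52e-05). The unnamed transcripts *Gm37673* (-0.84), *Gm43775* (-1.01) and *Gm17767* (-2.20) also fell, and *Gm12590* and *Osgep* are described with the repeat family.

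**Figure D2:**
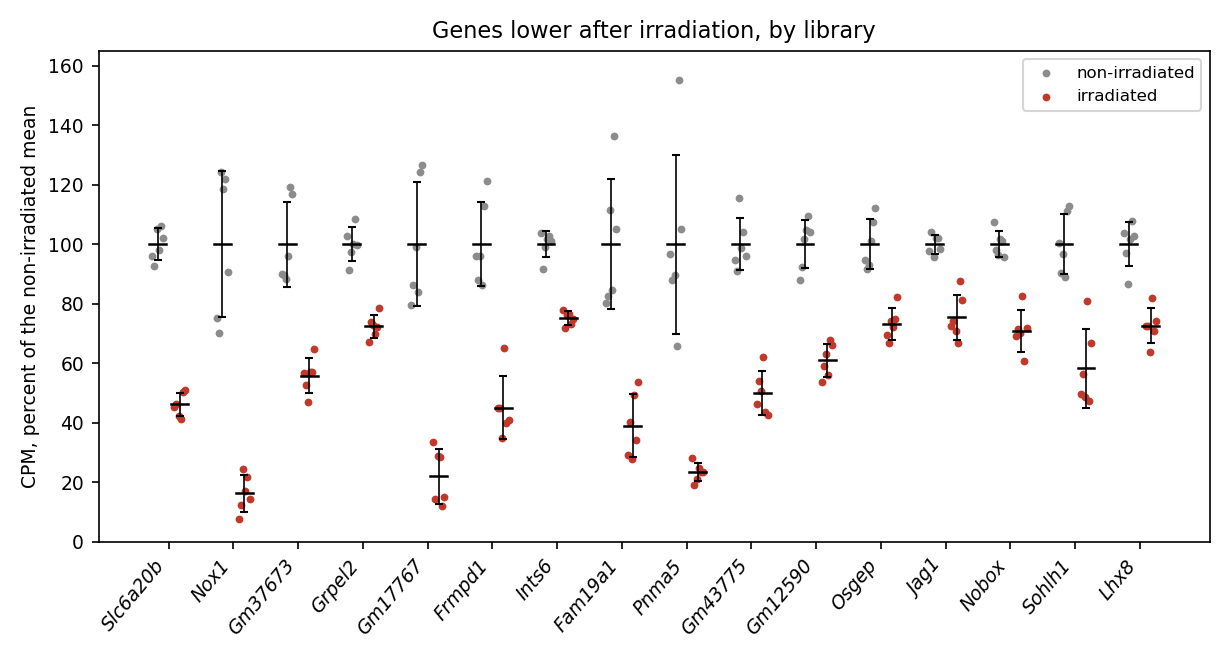
CPM of each wild-type library as a percent of the gene's non-IR mean, for the 12 fallers with the smallest adjusted p among genes whose groups do not overlap and for *Jag1*, *Nobox*, *Sohlh1* and *Lhx8*; grey points are the 6 non-IR and red points the 6 IR libraries, the long bars the means and the whiskers 1 SD. Every red point lies below every grey point, which the choice of the 12 genes fixed.

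The fallers of at least 2-fold, 58 in all with those above, were mostly weakly expressed. Their median level without IR was 0.789 CPM, 33 of them stayed under 1 CPM in both groups, and 28 were protein-coding. Among the genes at 1 CPM or more, the largest change was that of *Nlrp6*, an inflammasome sensor, at 0.712, 1.23 and 1.58 CPM without IR and 0.000, 0.126 and 0.320 CPM with IR (log2 fold change -3.08, adjusted p = 0.000226). Its groups did not overlap, although the IR median lies at about the level of 3 counts. *Nlrp6*, *Nox1* and *Gm17767* are the 3 genes of the list of 83 that fell. *Tktl2*, a testis-expressed transketolase-like gene, fell by 1.63 on the log2 scale with groups that touched (0.712 to 1.98 CPM against 0.200 to 0.725 CPM), and 4 genes of this class had 0 counts in all IR libraries.

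Transcription factors of the primordial oocyte were among the fallers. *Sohlh1*, a germ cell helix-loop-helix factor needed for the primordial pool, read 49.1, 54.4 and 62.2 CPM without IR and 26.1, 29.2 and 44.6 CPM with IR, which left the groups apart but the IR libraries widely spread (log2 fold change -0.78 ± 0.14 SE, adjusted p = 0.000795). *Nobox*, a homeobox factor of early follicle growth, read 168, 175 and 189 CPM against 107, 125 and 146 CPM (-0.50, adjusted p = 0.00728). *Lhx8*, a LIM-homeobox factor acting with them, fell from a median of 54.0 to 38.2 CPM (-0.46, adjusted p = 0.0297), and it passed the test in 3 of the 12 fits that left out a library (adjusted p = 0.0995 without IR replicate 3). Of 55 primordial and meiotic oocyte genes tested, 5 fell and 0 rose (0.87% of all genes fell and 1.49% rose), the others being *Tex14*, an intercellular bridge kinase (-0.34, adjusted p = 0.0622 without IR replicate 3), and *Tktl2*. The median of that list was -0.16 with 46 of 55 values negative, beside a median of -0.00 over all genes. Members that did not pass included *Figla* (-0.31), *Dazl* (-0.43), *Sycp3* (-0.59), *Ddx4* (-0.16) and *Trp63*, the gene of TAp63 (-0.41, adjusted p = 0.0864). Of 47 genes of growing oocytes 0 were called by edgeR (3 at an unadjusted p under 0.05, 0 by DESeq2 and 0 by limma-voom, median -0.04), with *Zp3* at -0.05 and *Gdf9*, an oocyte growth factor, at -0.03.

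A single gene was called in each of the Notch and hedgehog lists. *Jag1*, the Notch ligand through which oocytes signal to pregranulosa cells, read 81.6, 85.5 and 88.8 CPM without IR and 56.9, 62.6 and 74.7 CPM with IR (-0.41, adjusted p = 0.00696), and it was the only gene called of 23 Notch pathway genes, against 2.36% of all genes called. In the non-IR single-cell library its level was highest in pericyte or smooth muscle-like cells (62.4 UMIs per 1000000), next to 57.6 in oocyte-like cells. *Hhat*, the acyltransferase that attaches palmitate to hedgehog proteins, went from 31.7 to 36.9 CPM down to 26.6 to 30.5 CPM (-0.28, adjusted p = 0.0214, and 0.0793 without IR replicate 3), the only gene called of 19 hedgehog pathway genes. Neither pair of groups overlapped.

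Other fallers, chosen after their values were seen, included genes with known roles in germ cells, such as *Exd1*, a piRNA pathway factor (14.9 to 18.1 CPM against 10.0 to 12.4 CPM, -0.62), *Piwil2*, a PIWI protein (-0.47), *Marf1*, a regulator of oocyte RNA (-0.28), *Trim71*, a stem cell RNA-binding protein (-0.45), *Tex11* (-0.60), *Morc1* (-0.40) and *Zcwpw1* (-0.34). Of these, *Exd1*, *Marf1* and *Trim71* had groups that did not overlap. The GABA receptor subunit *Gabra3* (-0.74), the muscle synapse kinase *Musk* (-0.75), the active zone protein *Rims1* (-0.96), the sorting receptor *Sorcs3* (-0.69) and the nitric oxide synthase *Nos1* (-0.47) also fell, and all 5 had their highest non-IR level in oocyte-like cells. Transcription genes beside *Ints6* included *Taf5* (-0.43), *Taf5l* (-0.14), *Nelfcd* of the pausing factor NELF (-0.14), *Hexim2*, an inhibitor of the elongation kinase (-0.39), and the cap-binding *Ncbp3* (-0.33). Among repair genes, *Aplf* (-0.35), *Neil2* (-0.45), *Mrnip* (-0.47) and *Xrcc6*, which encodes the DNA end-binding protein Ku70 (-0.18), fell. Others rose, among them *Ercc5* (0.45) and *Rnf169* (0.48). The list of 55 repair and checkpoint genes holds none of these but *Xrcc6*. In it *Xrcc6* was the only faller and the polymerase gene *Polk* the only riser, near the shares of all genes that fell (0.87%) and rose (1.49%).

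The 10 smallest called changes with groups that did not overlap were all falls. They ran from *Fkbp15*, an endosomal actin-linked protein, at -0.12 to *Synrg*, a clathrin adaptor partner, at -0.19. *Fkbp15* read 70.1, 70.9 and 72.2 CPM without IR and 64.0, 65.6 and 67.0 CPM with IR (SE 0.03, adjusted p = 0.0208). The other members were *Taf5l*, *Nelfcd*, *Sumo3*, a ubiquitin-like modifier, *Necap2*, *Ezh1*, a histone H3 methyltransferase, *Vrk3*, *Ufc1* and *Ube4b*, enzymes of ufmylation and ubiquitination. Between 1 and 12 of the 12 fits with a library left out called them again, with *Synrg* and *Ufc1* at 12, *Fkbp15* at 9 and *Ezh1* and *Taf5l* at 1. In all, 111 fallers had a log2 fold change above -0.5 and 37 above -0.25, and 87 risers were under 0.5.

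**Figure D3:**
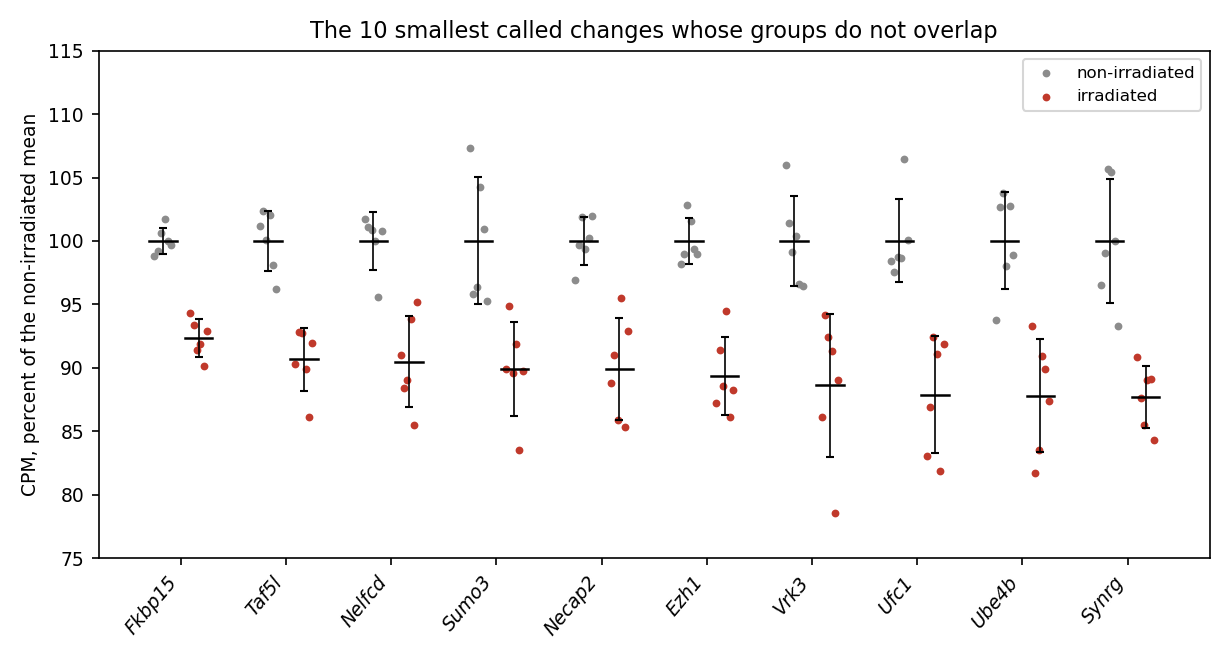
CPM of each wild-type library as a percent of the gene's non-IR mean for the 10 smallest called changes with groups that do not overlap; grey points are the 6 non-IR and red points the 6 IR libraries, long bars the means and whiskers 1 SD, and the y axis does not start at 0. All 10 genes fell, by -0.12 (*Fkbp15*) to -0.19 (*Synrg*) on the log2 scale.

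At the threshold itself, *Nup133*, a nuclear pore gene (-0.17, adjusted p = 0.0486), and *Lhx5* (1.32, adjusted p = 0.0486) lay just inside, and *Jade2* (0.36, adjusted p = 0.0504) and *Fat2* (0.90, adjusted p = 0.0504) just outside.

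Many transcripts that share a repeat fell. Starting from the lincRNA *Gm11261* (chr4:78659858-78661588, GRCm38, minus strand), 31 of 26541 genes tested with a transcript sequence held at least 20 of its stretches of 31 bases, 18 in the same and 13 in the opposite orientation. Of these 31 genes 19 fell, 0 rose and 30 had a negative log2 fold change, against 0.87% of all genes that fell. *Gm11261* is itself a faller of these libraries and is counted among the 19. The members share sequence and can share reads, so their values are not independent and the count is no test of the family. The other 12 did not pass the test, among them *Aen* (0.02), *Bzw2* (-0.01) and *Xdh* (-0.23). A stretch of *Gm11261*, positions 593 to 652 of its 838-base transcript in GENCODE M21, is shown because it recurs among the members. In either orientation it stands whole in 8 of the 31 genes, *Bzw2* and *Xdh* among them, and its 31-base words recur in 16:

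Gm11261 repeat: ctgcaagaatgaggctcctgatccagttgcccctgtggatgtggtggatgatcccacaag

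The 31 genes summed to 10523, 11378 and 12988 CPM (lowest, median and highest) without IR and 6889, 7604 and 9263 CPM with IR, and the groups did not overlap. *Gm11261* itself read 505 ± 31 CPM without IR and 337 ± 28.6 CPM with IR (mean ± SD, n = 6, log2 fold change -0.58). *Gm12590*, a lincRNA among the fallers with the smallest adjusted p, read 45.5, 53.1 and 56.4 CPM without IR and 27.7, 31.5 and 34.9 CPM with IR (-0.71, adjusted p = 1.61e-05). The largest reading was that of *Ppp2r5a*, a regulatory subunit of protein phosphatase 2A, at 3107 ± 350 CPM against 2045 ± 322 CPM (-0.60), and the unclassified transcript *Gm43622* read 2276 ± 193 CPM against 1475 ± 201 CPM (-0.63). The median over the 19 called members was -0.60, and those at 5 CPM or more ran from -0.71 to -0.27. Of 18 noncoding or unclassified members 15 fell, and of 13 protein-coding members 4 fell, namely *Ppp2r5a*, the checkpoint clamp gene *Rad1* (-0.60), the tRNA-modifying *Osgep* (-0.45) and *Olfr975* (-2.65, a gene at 0.393 CPM). Reads of one repeat copy can be assigned to another, so the fall of any single member is uncertain. In the single-cell libraries, whose UMIs come from transcript 3' ends, the ratios within oocyte-like cells were 0.961 (95% limits 0.864 to 1.07) for *Ppp2r5a*, 1.26 (1.10 to 1.43) for *Rad1* and 0.911 (0.809 to 1.02) for *Osgep*. *Gm11261* was lower there, with 701 UMIs without IR and 224 with IR, a log2 ratio of scaled UMIs of -0.53.

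The risers outside the list of 83 and under 2-fold included well-known p53 targets. *Bax*, the pore-forming effector of apoptosis, read 45.5, 49.1 and 58.2 CPM without IR and 67.1, 79.1 and 83.9 CPM with IR (log2 fold change 0.60 ± 0.06 SE, adjusted p = 1.62e-07). *Rps27l*, a ribosomal protein paralog, read 51.8, 54.2 and 58.3 CPM against 71.3, 75 and 84.9 CPM (0.48), and *Zmat3*, a zinc finger splicing regulator, 30.2, 36.4 and 40.5 CPM against 62.2, 73.5 and 79.6 CPM (0.99). None of these groups overlapped. *Gtse1*, a mitotic p53 regulator (0.94), *Polk*, a translesion polymerase (0.73), *Ppm1d*, a phosphatase that dampens the damage response (0.41), *Apaf1*, the apoptosome scaffold (0.44), *Tnfrsf10b*, a death receptor (0.56), and *Ei24* (0.43) rose as well. In the list of 60 p53 target genes 32 rose and 0 fell (1.49% and 0.87% of all genes), with a median of 0.49, many of them also members of the list of 83 and so not independent of it.

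Less familiar risers under 2-fold stood beside them. *Mthfd1*, the trifunctional enzyme of one-carbon folate metabolism, read 74.0, 78.8 and 83.9 CPM without IR and 103, 105.2 and 120.4 CPM with IR (0.47 ± 0.04 SE, adjusted p = 5.56e-08). *Bag4*, an Hsp70 co-chaperone that silences death receptors, read 37.8, 42.0 and 48.2 CPM against 67.7, 78.8 and 100 CPM (0.94, adjusted p = 2.64e-08), with the reservation that it shares 990 stretches of 31 bases with *Gm17484*, which also rose. The groups of *Mthfd1* and of *Bag4* did not overlap. Other risers under 2-fold with small adjusted p were *Prickle3*, a planar polarity protein (0.91), and *Cpt1c*, a brain-type carnitine palmitoyltransferase (0.95). So were *Rnf169*, a ubiquitin reader at DNA breaks (0.48), *Ckap2*, a spindle protein (0.55), and *Mob3a* (0.77, sharing sequence with *Gm26541*). For 148 of the 177 genes, which were chosen by the test on these libraries, the groups did not overlap (1.68% of all genes).

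The 148 risers of at least 2-fold outside the list had a median log2 fold change of 1.69 and a median starting level of 0.479 CPM. Those with the smallest adjusted p included *Phlda3*, an inhibitor of AKT (23.7 to 31.2 CPM against 59.6 to 68.9 CPM, 1.21), *Trp53inp1* (1.23), *Sesn2*, a stress-induced inhibitor of mTORC1 (1.43), and *Pidd1*, an activator of caspase-2 (1.25). The study's text also names *Trp53inp1* among its radiation-responsive genes. *Ripk4* (1.29), *Esrp2*, an epithelial splicing regulator (1.05), *Sytl1* (1.64), *Myh7b* (1.89) and *Gm37795* (1.52) followed. None of these groups overlapped. *Ripk4* is a kinase of epidermal differentiation. Other risers, chosen after their values were seen, are known from epithelia: *Zfp750* (0.85), *Card14* (1.34), *Bnc1* (0.66), *Clca2* (1.69), *Col17a1* (1.19), *Evpl* (0.94), *Cldn4* (0.61), *Lama5* (0.58), *Fat1* (0.71) and *Krt5*, at 0 to 0.0684 CPM without IR and 0.141 to 0.560 CPM with IR. The surface epithelium list summed to 2044 to 2412 CPM without IR and 1661 to 3243 CPM with IR, highest in IR replicate 4. Of its 17 members 1 rose, *Dcdc2a* (1.49% of all genes rose). *Dcdc2a* was also highest in IR replicate 4, at 8.57 CPM against 5.64 CPM in the next IR library. Surface epithelial-like cells numbered 195 in the non-IR and 303 in the IR single-cell library. Within oocyte-like cells, the log2 ratio of scaled UMIs was 3.24 for *Zfp750*, 3.32 for *Lama5*, 1.98 for *Cldn4*, 1.72 for *Bnc1* and 1.18 for *Fat1*. Ratios of the other genes known from epithelia are not given here. The highest non-IR level was in oocyte-like cells for *Zfp750* and *Cldn4*. It was in surface epithelial-like cells for *Lama5* and *Bnc1* and in granulosa-like cells for *Fat1*. The part of each class in these rises was not tested.

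The letters of a p53 site were looked for around the RefSeq start of the genes. The promoter table (RefSeq, GRCm38.p6, 250 bases before to 50 after each gene's start) held 15695 of the genes tested and was searched on both strands for the p53 response element, allowing 2 mismatches and a spacer of 1 base at most. It was present in 0.847% of all promoters, in 8 of 60 listed risers (13.3%), in 10 of 222 risers outside the list (4.50%) and in 2 of 155 fallers (1.29%). All 10 of these unlisted risers were among the 135 under 2-fold (7.41%). Windows of 60 bases from low-fold risers are shown because members of this set rose together, with the matched element in capitals, above that of the listed gene *Cdkn1a* for comparison:

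Mthfd1: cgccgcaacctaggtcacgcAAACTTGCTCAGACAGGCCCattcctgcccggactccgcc
Rps27l: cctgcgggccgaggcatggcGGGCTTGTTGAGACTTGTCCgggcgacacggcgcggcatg
Ckap2: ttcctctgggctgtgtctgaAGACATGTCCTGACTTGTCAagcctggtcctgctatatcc
Bax: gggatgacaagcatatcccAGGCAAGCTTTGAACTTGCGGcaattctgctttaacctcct
Cdkn1a: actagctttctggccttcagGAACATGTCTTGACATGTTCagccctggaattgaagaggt

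These windows lie at chr12:76255070-76255129 (plus strand) for *Mthfd1*, chr9:66946276-66946335 (plus) for *Rps27l*, chr8:22185983-22186042 (minus) for *Ckap2*, chr7:45467059-45467118 (minus) for *Bax* and chr17:29090908-29090967 (plus) for *Cdkn1a*. The *Mthfd1* and *Rps27l* elements carry 1 mismatch, as does that of *Cdkn1a*, and those of *Ckap2* and *Bax* carry 2. The element starts 142 bases before the RefSeq transcription start in *Mthfd1*, 117 in *Rps27l*, 203 in *Ckap2* and 201 in *Bax*. For *Rps27l* that start lies inside the gene as GENCODE M21 draws it, so the window is not upstream of that gene model. For *Mthfd1* the bases tested just after the RefSeq start were not found in a GENCODE M21 transcript of the gene. The letters TTTGAA of the CHR element of cell cycle genes were found in 15.5% of faller promoters and 16.0% of all, and CCAAT in 41.3% and 41.6%. A match describes letters only, and a promoter without one says nothing of the factor.

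The single-cell libraries placed the highest level of most fallers in oocyte-like cells. Cells were grouped by markers into classes. Each gene with 20 UMIs or more in the non-IR library was given its leading class, the one with the highest level in that library. Fallers thus entered by the library where they are high, and risers by the library where they are low. The leading class was the oocyte-like one for 154 of 185 fallers (83.2%), for 78 of 246 risers outside the list (31.7%) and for 5250 of 17038 genes tested (30.8%). With a single library per condition there is no test, and each class ratio below carries an exact interval for counting error only. The leading class is a level, not a change, and it was read from animals other than those of the bulk libraries. A cluster of 692 cells led by the smooth muscle genes *Acta2*, *Tagln* and *Myh11* was left unnamed. Granulosa-like clusters differed in their share of the libraries, with 3 non-IR and 168 IR cells in a cluster of low depth and 714 and 1129 cells in another, so ratios within that class compare different mixtures.

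**Figure D4:**
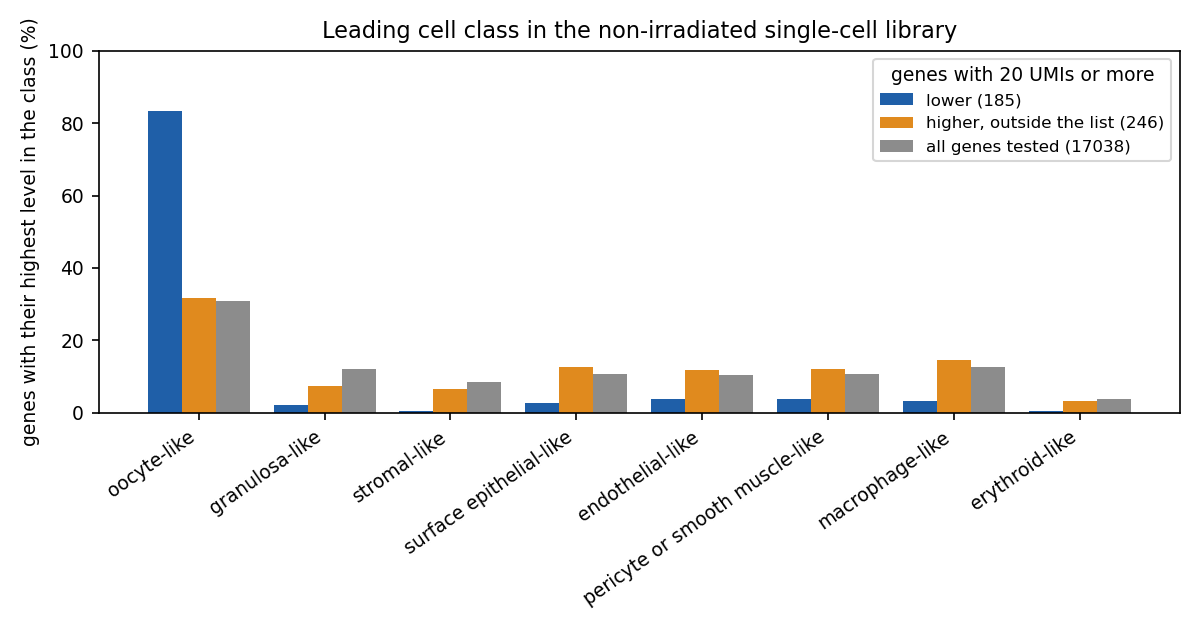
Bars give the percent of genes whose level in the non-IR single-cell library was highest in each of 8 cell classes, for fallers (blue), risers outside the list of 83 (orange) and all genes tested (grey) with 20 UMIs or more in that library. The oocyte-like class leads for 83.2% of fallers, 31.7% of these risers and 30.8% of all genes.

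Oocyte-like cells numbered 196 without IR and 170 with IR, and they held 15.6% and 7.51% of the UMIs of the cells used, with a mean of 147593 and 78613 UMIs per cell. The oocyte share of RNA and the depth of each oocyte-like cell thus differed between these 2 libraries, and the part of growing and primordial oocytes in the ratios of this class was not tested. Of the 233 fallers, 123 had 100 UMIs or more in oocyte-like cells of the IR library. Scaled to the total of that class, 107 of the 123 were lower (87.0%, all genes 46.5%), with a median log2 ratio of -0.29. Over all cells 136 of 143 were lower (95.1%, all genes 54.4%), with a median of -0.42. In granulosa-like cells the median was -0.06. Oocyte transcripts were also counted in that class (*Nobox* at 2.40 UMIs per 1000000 there without IR, against 366 in oocyte-like cells), and their source was not tested.

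The ratios within oocyte-like cells differed between genes. *Slc6a20b* went from 812 to 166 UMIs, a ratio of levels of 0.443 (95% limits 0.372 to 0.524). *Ints6* was at 0.549 (0.513 to 0.586) in oocyte-like cells and at 1.03 (0.982 to 1.08) in granulosa-like cells, and *Grpel2* at 0.6248 (0.569 to 0.685) and 0.967 (0.903 to 1.04). Both genes were lower in oocyte-like cells and within a few percent of their level in granulosa-like cells. *Tex14*, whose level was highest in granulosa-like cells, was at 0.540 (0.490 to 0.594) in oocyte-like and 0.977 (0.951 to 1.00) in granulosa-like cells. *Wscd2* (bulk -0.95) was at 0.399 (0.359 to 0.443), and *Arhgef26*, a RhoG exchange factor (bulk -0.57), at 0.251 (0.201 to 0.310), with 96 UMIs in the IR library, below the minimum for the counts above. For the transcription factors the ratios were nearer to 1. *Sohlh1* was at 0.883 (0.850 to 0.916), *Nobox* at 0.891 (0.860 to 0.923) and *Lhx8* at 0.990 (0.949 to 1.03), while *Jag1* was at 0.799 (0.727 to 0.877).

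The low-fold risers looked different again when single classes were read. A riser was counted where the non-IR library, in which it is low, held 100 UMIs or more in the class, which 119 of the 177 did in oocyte-like cells. Of these 119, 72 were at least 2-fold higher within oocyte-like cells (60.5%, all genes 3.68%), beside 7 of 124 in granulosa-like cells (5.65%, all genes 0.585%) and 8 of 118 in stromal-like cells (6.78%, all genes 0.235%). *Slc6a8*, the creatine transporter, rose in bulk from 40.9 to 57.2 CPM to 58.3 to 66.7 CPM (0.42, adjusted p = 9.66e-05). That gene, chosen after its values were seen and below the minimum for these counts, went from 92 to 2348 UMIs in oocyte-like cells, a ratio of 55.2 (44.8 to 68.8). It was at 1.04 (0.973 to 1.11) in stromal-like and 1.22 (1.09 to 1.36) in granulosa-like cells. Its highest non-IR level was in pericyte or smooth muscle-like cells.

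The 12 low-fold risers with the smallest adjusted p differed in their ratios across classes. *Mthfd1* was at 3.54 (3.24 to 3.87) in oocyte-like and 0.981 (0.924 to 1.04) in granulosa-like cells, *Bag4* at 4.19 (3.97 to 4.42) and 0.925 (0.872 to 0.981), *Prickle3* at 14.3 (12.4 to 16.6) and 0.923 (0.842 to 1.01), and *Mob3a* at 9.23 (7.69 to 11.1) and 1.48 (1.29 to 1.71). *Ckap2* was at 3.87 (3.56 to 4.19) in oocyte-like, 1.07 (1.01 to 1.13) in granulosa-like and 1.83 (1.75 to 1.91) in stromal-like cells. *Gtse1* was at 4.11 (3.75 to 4.50) in oocyte-like and 1.32 (1.18 to 1.49) in granulosa-like cells. *Bax* showed the reverse order, with 1.24 (1.18 to 1.3) in oocyte-like and 2.41 (2.35 to 2.47) in granulosa-like cells. *Zmat3* was at 1.21 (0.998 to 1.47) and 2.09 (1.89 to 2.31), *Cpt1c* at 1.16 (0.866 to 1.54) and 2.55 (2.25 to 2.91), and *Rps27l* at 1.26 (1.23 to 1.29) and 1.5 (1.48 to 1.52). *Polk* was at 1.23 (0.993 to 1.51) and 1.72 (1.57 to 1.89), and *Rnf169* at 1.38 in both classes.

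Of the fallers under 2-fold, 119 of 175 had 100 UMIs or more in oocyte-like cells of the IR library. Among these, 103 were below 1 within that class (86.6%, all genes 46.5%), and 4 were lower by at least 2-fold (3.36%, all genes 1.96%). Among the smallest bulk changes, *Synrg* was at 0.680 (0.607 to 0.760) in oocyte-like cells and *Fkbp15* at 0.814 (0.746 to 0.887), whereas *Sumo3* was at 1.17 (1.12 to 1.21) and *Nelfcd* at 1.16 (1.08 to 1.25), above 1.

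**Figure D5:**
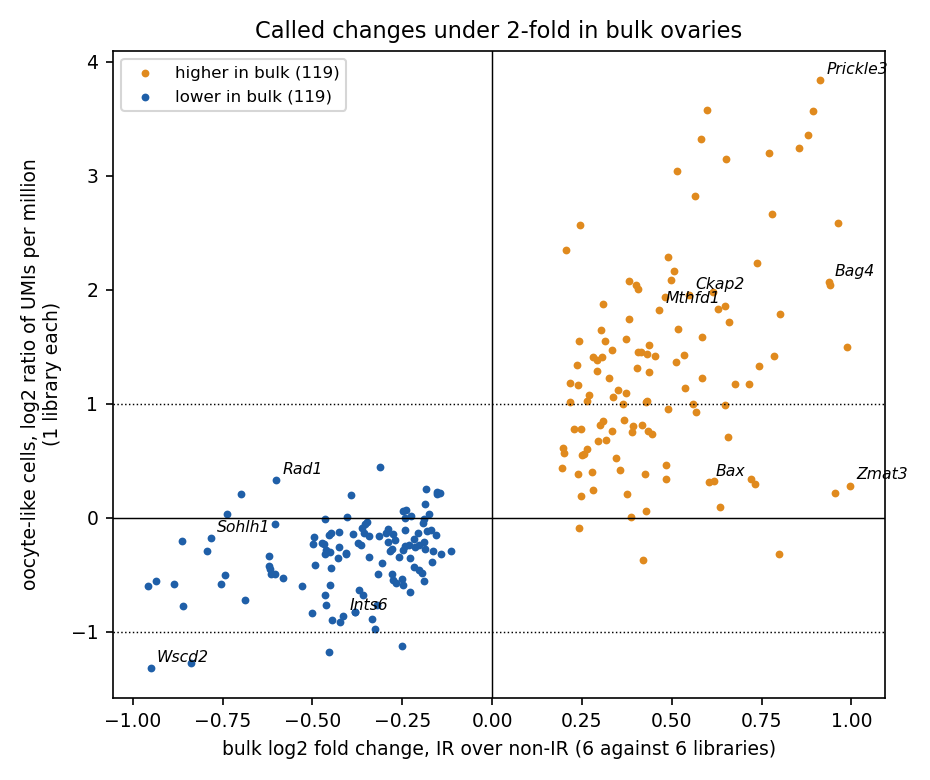
Each point is a gene whose called bulk change was under 2-fold; the x axis gives the bulk log2 fold change (6 against 6 libraries) and the y axis the log2 ratio of scaled UMIs within oocyte-like cells (1 library each), with dotted lines at 2-fold. Genes had 100 UMIs or more in the library where they were low. Of the 119 risers (orange) 72 lie on or above the upper line, and of the 119 fallers (blue) 103 lie below 0.

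In the *Chek2*-/- libraries, fitted in the same model, IR changed 3 genes (0.0112% of those tested), *Ccng1*, *Eda2r* and *Ano3*, all of which also rose in the wild type. Of the 233 fallers 0 were called by edgeR in the *Chek2*-/- ovaries, 0 by DESeq2 and 0 by limma-voom, with 5 at an unadjusted p under 0.05. Of these fallers 69 had a negative log2 fold change (29.6%, all genes 50%), and their median was 0.05. The 400 risers had a median of 0.04. With a *Chek2*-/- library left out, the medians ran from -0.01 (without non-IR replicate 6) to 0.08 (without non-IR replicate 1) for the fallers and from 0.02 (without IR replicate 2) to 0.05 for the risers. The interaction of genotype and dose was called for 84 of the 233 fallers (36.1%) and for 168 of the 400 risers (42.0%), against 1.03% of all genes, which count the wild-type libraries a second time. *Slc6a20b* was at 19.8 to 23.7 CPM without IR and 18.9 to 24.3 CPM with IR in these ovaries (-0.05, interaction adjusted p = 2.86e-07). The log2 fold changes were 0.04 for *Ints6* (interaction adjusted p = 0.00049), -0.01 for *Grpel2* (0.000964), 0.10 for *Sohlh1* (0.0177) and 0.00 for *Mthfd1* (6.0e-05). For *Nobox* (0.04) and *Jag1* (0.01) the interaction did not pass (adjusted p = 0.101 and 0.136). The repeat family summed to 11875 ± 1086 CPM without IR and 12389 ± 1791 CPM with IR (mean ± SD, n = 6).

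The remaining lists held few or no calls, to be read beside the 1.49% of all genes that rose and the 0.87% that fell. Of 68 DNA replication genes 0 were called by edgeR (23 at an unadjusted p under 0.05, 2 by DESeq2, 0 by limma-voom) with 60 values negative (median -0.10), among them *E2f1* at 60.7 to 69.4 CPM without IR and 53.6 to 57.1 CPM with IR (-0.23, adjusted p = 0.23). Of 36 immediate early genes 0 were called by edgeR (3 at an unadjusted p under 0.05, 1 by DESeq2, 0 by limma-voom) with 33 values positive (median 0.13). The mitosis list gave 4 risers (*Gtse1*, *Ckap2*, *Psrc1* and *Pif1*) and 1 faller, the kinesin *Kif14* (-0.36, called in 1 of the 12 fits with a library left out), of 76. Of 45 granulosa genes 0 were called by any of the 3 tools, and 0 had an unadjusted p under 0.05. Of 55 interferon stimulated genes 0 were called by edgeR (15 at an unadjusted p under 0.05, 3 by DESeq2, 3 by limma-voom), and their median was 0.52 in the wild type and 0.37 in the *Chek2*-/- libraries. Non-IR replicate 5 stood apart in such genes, with *Rsad2* at 43.9 CPM against 0.931 to 4.61 CPM in the other non-IR libraries, and without it 4 members were called and the median was 0.81. The 2 neutrophil genes called, *Mpo* and *Prtn3*, rested on IR replicate 3, at 262 and 81.4 CPM there against at most 0.280 and 0.580 CPM in the other 5 IR libraries. Of 25 oviduct and uterine genes 2 rose, *Wnt7a* (1.52) and *Cldn4* (median of the list 0.41), and of 23 glucocorticoid response genes 2 rose, *Ddit4* (0.52) and *Lpin1* (0.44). Among lists with 1 call, the clock gene *Hlf* fell (-0.51, adjusted p = 0.0386, and 0.113 without non-IR replicate 5), as did *Crb1* of the 6 markers of C57BL/6 substrains (-0.81, adjusted p = 0.00217).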

How the data were processed

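Bulk values were estimated counts per gene that the authors made with Salmon 1.3.0 after Trim Galore 0.6.5, per the labels on build mm10, and deposited as 1 table of 44674 identifiers. The sources used here name no strand setting. Rounded to whole numbers, the estimated counts of genes with 10 or more in total over the 24 bulk libraries were kept, and a TMM-scaled quasi-likelihood model (edgeR 4.0.16, glmQLFit with robust = TRUE, R 4.3.3) with 1 coefficient for each of the 4 groups was fitted to all 24 libraries. P-values were adjusted by Benjamini-Hochberg over all genes tested and called at 0.05. CPM divide by the TMM-scaled total. A log2 fold change of a gene with 0 counts in a group depends on the prior count. The labels do not say whether libraries of a group came from separate litters, so p-values measure only the spread between these libraries.

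Single-cell values were counts of UMIs that the authors deposited as filtered Cell Ranger matrices. Of 10285 non-IR and 11053 IR barcodes, 9666 and 10345 had at least 1000 genes and at most 20% mitochondrial and 50% ribosomal UMIs, and 389 and 566 were removed as doublets. The 2 libraries shared 31 barcodes. Leiden clusters were named from markers, and UMIs were summed per class. A cluster with more top genes of another class stayed unnamed. Counts of genes by class ratio needed 100 UMIs in the library where the genes are low (non-IR for risers, IR for fallers); log2 class ratios in counts of genes used 0.5 added to each sum, and intervals are exact at 95% and cover counting error only. Columns of the authors' own comparisons were not used.

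The genes and lists were chosen with earlier results of these data known. Named were the 12 fallers with the smallest adjusted p among genes with groups that do not overlap, the 10 largest fallers at 1 CPM or more, the 12 and 10 risers outside the list of 83 under and over 2-fold with the smallest adjusted p, the 10 smallest called changes, called list members, the genes next to the threshold and listed fallers. Some genes that met these rules are not reported here. Transcripts for shared sequence and positions came from GENCODE M21 (GRCm38), while the study's methods name a later Ensembl transcript release for the counts, so shared sequence in the transcripts that were counted may differ. The list of 83 is the study's supplementary table of radiation-responsive genes. Promoters came from RefSeq. Alternatives covered DESeq2 1.42.0, limma-voom 3.58.1, other scalings and filters, a replicate block and leaving out each library; a term for replicates 5 and 6, these replicates alone, the others alone and a fit without robust estimation were added after seeing the data. The test was also run on simulated counts with known folds, and the outcome is not given here.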

Additional observations from a re-analysis of the deposited data

Results flagged for a closer look

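Among the 98 named genes, the highest or lowest library stood far from the other 5 in 18 of 196 groups (9.18%). About 1 in 20 would be marked among independent normal samples. These groups share the same libraries, and many of the genes were chosen on these values, so that rate is no expectation for them. The ratio of the gap to the next library over the whole range of the group exceeded Dixon's 95% critical value for 6 samples in each of the 18. In the non-IR libraries it was 0.712 for *Nelfcd*, 0.692 for *Jade2* and 0.721 for *Ufc1* (all replicate 5), 0.679 for *Apaf1*, 0.779 for *Crb1*, 0.636 for *Dcxr* and 0.837 for *Xrcc6* (all replicate 2), and 0.631 for *Def6* (replicate 1). In the IR libraries, replicate 4 set it for *Apaf1* (0.785, the lowest), *Dcdc2a* (0.816), *Fat2* (0.786), *Frmpd1* (0.661), *Jade2* (0.724), *Prickle3* (0.674) and *Sytl1* (0.646). Replicate 3 set it for *Mpo* (0.999), *Prtn3* (0.995) and *Def6* (0.794), and the summed neutrophil genes were highest in that library.

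The change after IR differed between wild-type and *Chek2*-/- ovaries, by the interaction term of the edgeR model, for 84 of the genes that fell and 168 of those that rose in the wild type (1.03% of all genes), genes that were chosen on the same wild-type libraries. Adjusted p-values of the interaction were 2.86e-07 for *Slc6a20b*, 6.88e-05 for *Nox1*, 0.000964 for *Grpel2*, 0.00049 for *Ints6*, 0.0177 for *Sohlh1*, 4.1e-05 for *Bag4* and 6.0e-05 for *Mthfd1*.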

How the results depend on the processing

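Counts of fallers moved more than counts of risers. Against 633 called genes (400 higher, 233 lower), leaving out each library gave 512 to 650 (351 to 401 higher, 144 to 282 lower), with 38 to 65 fallers of at least 2-fold and 100 to 219 under 2-fold. The number of fallers was lowest without IR replicate 3 (144) and without non-IR replicate 5 (148). In all 12 of these fits 124 fallers and 315 risers were called, 89 and 135 of them under 2-fold, and 203 and 368 were called by DESeq2 and limma-voom. Of the 233 fallers and 400 risers, 160 and 378 were called again in the 12 wild-type libraries alone, 162 and 357 with the replicate block and 79 and 290 in replicates 1 to 4. DESeq2 called 267 risers under 2-fold in place of 177. Fitted to the 12 wild-type libraries alone, a term for replicates 5 and 6 gave 952 genes, 362 lower, with 341 risers and 312 fallers under 2-fold. Without the term these 12 libraries gave 709 genes, 233 lower, with 235 risers and 186 fallers under 2-fold. Replicates 1 to 4 alone gave 112 fallers, 16 of at least 2-fold and 96 under. Replicates 5 and 6 alone gave 420 fallers, 94 of at least 2-fold and 326 under, and 340 risers under 2-fold; the cause was not tested. With a minimum of 100 UMIs in the non-IR in place of the IR library, a choice added after seeing the data, the median log2 ratio of the fallers over all single cells was -0.60 in place of -0.42. Apart from the replicate block below, these counts stayed within 1.5 times under the other settings. All 233 fallers kept their sign under every setting in which they were tested, and so did the risers except *Mpo* (-0.23 to 8.46 with a library left out, the former without IR replicate 3, and -0.065 in replicates 5 and 6 alone) and *Prtn3* (-0.26 in the latter). No scaling moved the median of all genes by over 0.1.

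Whether the replicate numbers pair the libraries is not given by the labels. Deviations of same-numbered IR and non-IR libraries correlated at 0.16 to 0.60 for 5 numbers and at -0.10 for replicate 1, and 1 of 6 numbers was the best match on both sides. With the replicate block, fitted to the 12 wild-type libraries alone, 830 genes were called (519 higher, 311 lower), with 291 risers and 261 fallers under 2-fold. The same 12 libraries without the block gave 709 genes (476 higher, 233 lower), with 235 risers and 186 fallers under 2-fold. The 291 risers are over 1.5 times the 177 of the main fit, which also holds the *Chek2*-/- libraries.

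Depth limits the fallers of at least 2-fold, of which 33 of 58 stayed under 1 CPM, and 1 single-cell library per condition allows no test of the class ratios.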
